A study of Mus musculus with 16 samples.

Results

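The 9 genes described here encode receptors and signalling proteins of the interleukin-6 cytokine family: the receptor subunits Il6st, Il6ra, Lifr, Osmr and Il11ra1, the kinase Jak1, the transcription factor Stat3 and the feedback inhibitors Socs2 and Socs3. They were taken by symbol from the deposited table of 55487 genes. All 9 were found, and all 9 were among the 17490 genes that passed the filter on low counts. The set was chosen by the measured level of Il6st, which was lower in trained than in untrained muscle of these libraries. Differences between trained and untrained muscle are therefore given for the 9 genes as a description, with no test. The comparisons of genotypes, and of the training response between genotypes, did not enter that choice and were tested.

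RNA from mouse skeletal muscle was sequenced in 4 groups of 4 libraries: wild-type (WT) mice without training, WT mice after treadmill training, mice labelled CHCHD4 Tg (Tg) without training, and Tg mice after treadmill training. CHCHD4 is an import and oxidoreductase protein of the mitochondrial intermembrane space, and the study asked which transcripts go with it and with exercise training. The labels do not give the promoter of the transgene, the strain, age or sex of the mice, the muscle, or the length of training. Separate animals are not stated either, so that a p-value here speaks only of library-to-library spread, which may be technical.

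Cytokines of the interleukin-6 family bind receptor complexes that share the signal-transducing subunit encoded by Il6st. Ligand-binding subunits such as those of Il6ra and Il11ra1 or partner subunits such as those of Lifr and Osmr decide which cytokine a cell can sense. The complexes activate Janus kinases, which phosphorylate STAT3; STAT3 then enters the nucleus and induces, among others, Socs3, whose product blocks the receptor complex. Contracting muscle is known to release interleukin-6, and leukaemia inhibitory factor acts on muscle precursor cells.

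Promoter windows of the 250 bases before the transcription start were taken from RefSeq (GRCm38.p6) for 8 of the 9 genes; Socs2 was not matched. They are shown for Il6st, whose level chose the set, and for Stat3, the factor that the receptors activate, on the strand of the gene. Capitals mark each match to TTNNNNNAA, a loose form of the palindrome that STAT factors recognise.
Il6st, chr13:112463820-112464069, plus strand: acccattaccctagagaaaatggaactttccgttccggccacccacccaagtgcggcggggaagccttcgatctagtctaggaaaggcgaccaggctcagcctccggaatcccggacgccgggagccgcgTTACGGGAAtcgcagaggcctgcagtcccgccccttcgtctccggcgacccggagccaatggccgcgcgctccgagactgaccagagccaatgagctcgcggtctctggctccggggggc
Stat3, chr11:100939541-100939790, minus strand: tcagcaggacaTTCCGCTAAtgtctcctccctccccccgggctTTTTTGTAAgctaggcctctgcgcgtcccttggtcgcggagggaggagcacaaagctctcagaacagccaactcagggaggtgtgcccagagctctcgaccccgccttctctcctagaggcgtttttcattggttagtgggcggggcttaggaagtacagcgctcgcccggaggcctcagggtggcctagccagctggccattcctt

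The Il6st window held 1 such match, TTACGGGAA, whose first base lay 120 bases before the start, and the Stat3 window held 2. The stricter form TTCNNNGAA, which reads the same on both strands and is contained in the loose form, was in neither. Among the windows of the matched genes it was found in that of Socs3 alone, as TTCTTAGAA from 154 bases before the RefSeq start. The 2 annotations differ there: that start lies inside the Socs3 gene as GENCODE M21 places it, and 77 bases of the window fall in annotated exons. Of 32851 promoter windows of this length in the RefSeq table, 7.02% held TTCNNNGAA and 55.24% held TTNNNNNAA. A match to letters is a description of the window and no evidence of binding.

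Library totals ranged from 40888318 to 61703732 counts. Chchd4 lay between 6.88 and 8.98 CPM (counts scaled to the library size) in the 8 WT libraries and between 18.1 and 22.2 CPM in the 8 Tg libraries, so every library matched its genotype label. All 8 muscle fibre markers of the list used here were measured. Their summed level was 160300 to 188700 CPM in 15 libraries and 123500 CPM in WT untrained replicate 2, which also had the highest scaling factor (1.285; 0.924 to 1.105 in the others). The liver transcript Alb was above 10 CPM in WT untrained replicate 2, WT trained replicate 4 and Tg untrained replicate 2. Myh7, the slow-twitch myosin gene, was above 10 CPM in WT untrained replicate 2, WT trained replicate 3 and Tg untrained replicates 2 and 3. The values of Il6st, the correlations and several calls are given with and without some of these libraries. For other genes the values with all libraries are given, in places with the range over single libraries left out.

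Il6st (ENSMUSG00000021756.12; chromosome 13, 112464070 to 112510086, plus strand, GRCm38) was at its highest in WT untrained muscle and at a narrow, lower level in all trained muscle. Its 4 libraries measured 175, 260.3, 187 and 182 CPM in WT untrained and 125, 118, 127 and 126 CPM in WT trained muscle. In Tg muscle they measured 194, 197, 128 and 127 CPM without training and 128, 122, 127 and 120.3 CPM with training. The WT groups did not overlap, a pattern found in the lower direction at 2.02% of the tested genes. The Tg groups overlapped, because Tg untrained replicates 3 and 4 lay at the trained level while replicates 1 and 2 lay with the WT untrained libraries.

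Il6st averaged 201 ± 39.7 CPM in untrained and 124 ± 4.36 CPM in trained WT muscle, and 161 ± 39.3 CPM in untrained and 125 ± 3.74 CPM in trained Tg muscle (SD, n = 4). In untrained WT muscle the spread came mostly from replicate 2, since the other 3 libraries lay between 175 and 187 CPM; in untrained Tg muscle it came from the split into 2 high and 2 low libraries. The log2 fold change with training was -0.70 (SE 0.145) in WT, -0.38 (SE 0.145) in Tg and -0.54 (SE 0.102) averaged over the genotypes. These values describe the difference that chose the set. The averaged value was -0.47 without WT untrained replicate 2, -0.42 without the 3 libraries high in Alb and -0.47 without the 4 libraries high in Myh7, so the direction was kept without them. In WT it was -0.55 without WT untrained replicate 2, and in Tg -0.27 without Tg untrained replicate 2. Of the 17490 tested genes, 509 had a training difference as low as that of Il6st or lower.

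**Figure D1:**
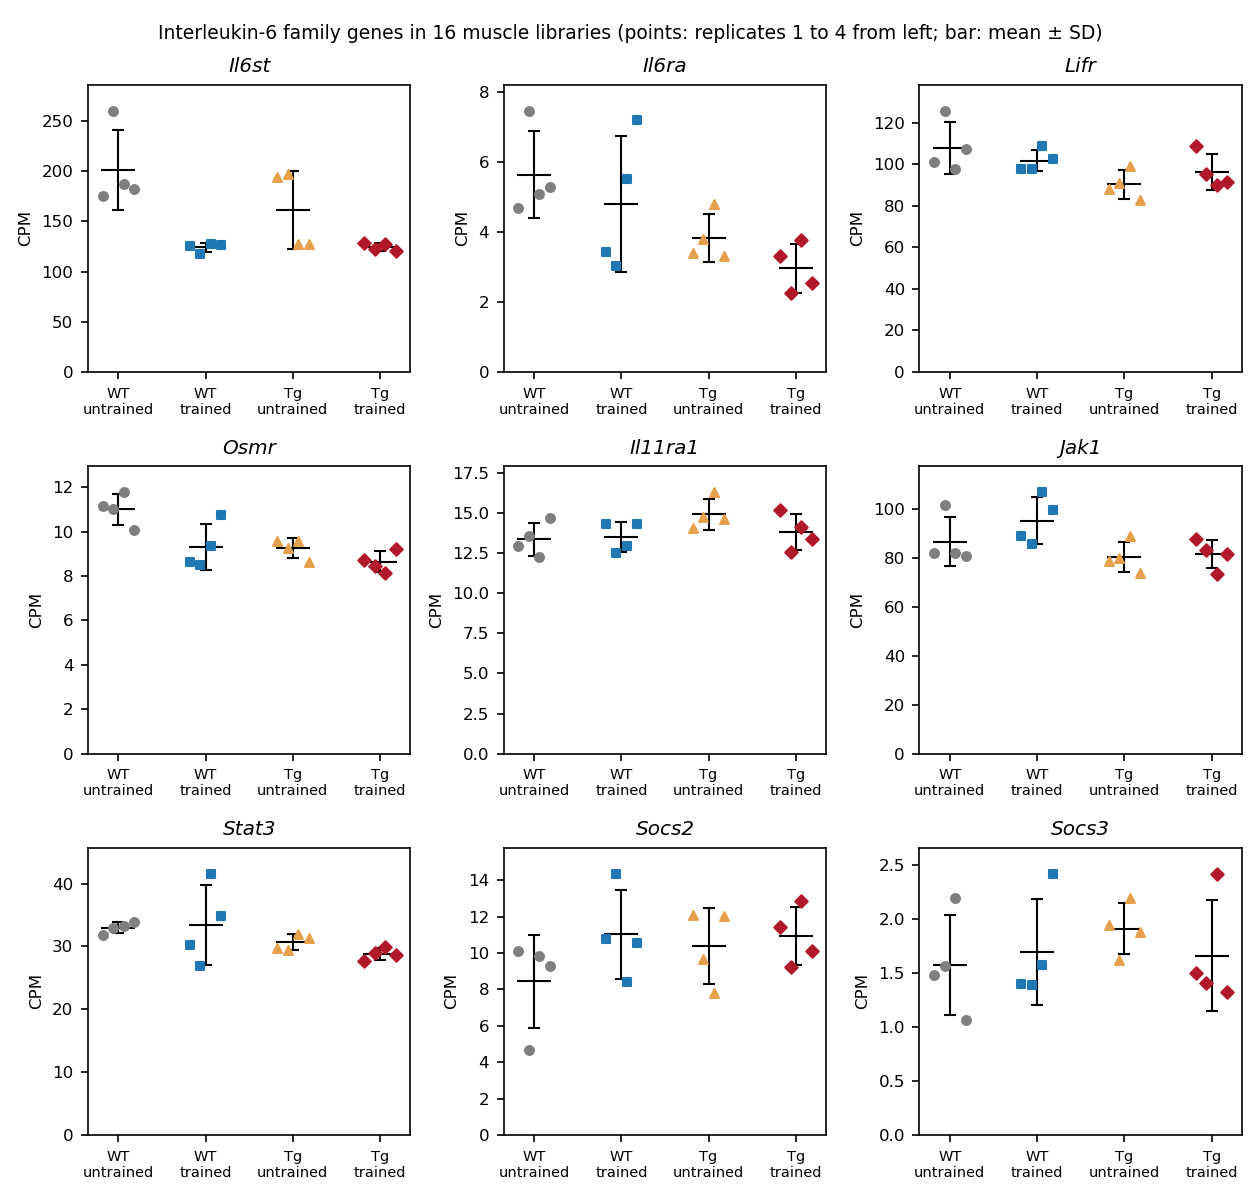
Level of each of the 9 genes in CPM, on axes that start at 0, in the 4 groups; points are the libraries, and bars show the mean and SD. Il6st lies between 118 and 128 CPM in all 8 trained libraries and in 2 of the 4 Tg untrained ones.

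In bulk muscle, fewer cells of a type and less RNA per cell cannot be told apart. Summed over 7 markers, fibroblast genes ranged from 374 to 458 CPM in untrained and 209.5 to 422 CPM in trained WT libraries, and from 319.5 to 507 CPM in untrained and 235 to 365 CPM in trained Tg libraries. Adipocyte markers (7 genes) ranged from 73.0 to 118 CPM in untrained and 71.1 to 75.8 CPM in trained WT libraries, and from 86.7 to 128 CPM in untrained and 61.6 to 76.4 CPM in trained Tg libraries. Both lists had 7 of 7 members with a negative averaged training difference, with medians of -0.40 and -1.96. So did 7 of 7 tendon markers (median -0.995) and 4 of 4 smooth muscle markers (-0.24). The same held for 4 of 4 Schwann cell markers (-0.15) and 6 of 8 macrophage markers (-0.39). Negative values were found for 0 of 7 endothelial (median 0.06), 0 of 3 satellite cell (0.05) and 1 of 8 muscle fibre markers (0.10). Over all tested genes 49.44% were negative. No fibroblast or adipocyte marker was at 0 in all libraries. Of the 2 Tg untrained libraries with Il6st at the trained level, replicate 3 had the highest fibroblast sum of all 16 libraries and replicate 4 the lowest of its group. Adipocyte sums in that group were 128 and 94.6 CPM in replicates 1 and 2, where Il6st was high, and 86.7 and 88.9 CPM in replicates 3 and 4. Markers other than Adipoq and Lep carried these sums, since those 2 genes averaged 4.98 and 4.10 CPM in the group. The part of these cells in the level of Il6st was not tested.

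Between genotypes Il6st did not pass the threshold in any of the comparisons. The log2 fold change of Tg against WT was -0.32 (SE 0.145, edgeR adjusted p = 0.296) without training, 0.00 (SE 0.145, adjusted p = 0.997) with training and -0.16 (SE 0.102, adjusted p = 0.458) averaged. The training response of Tg minus that of WT was 0.32 (SE 0.204, 95% interval -0.11 to 0.76, adjusted p = 0.875). The training difference in Tg muscle is thus not shown to differ from that in WT. Without WT untrained replicate 2 the averaged genotype difference was -0.08 and the difference of responses 0.18.

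Il6ra (chromosome 3, 89864059 to 89913196, minus strand), which encodes the binding subunit for interleukin-6, had the largest averaged genotype difference of the 9 genes. It measured 4.69, 7.47, 5.09 and 5.30 CPM in WT untrained and 3.42, 3.03, 5.53 and 7.20 CPM in WT trained libraries. In Tg libraries it measured 3.41, 3.81, 4.81 and 3.31 CPM without training and 3.31, 2.25, 3.78 and 2.54 CPM with training. No Tg library exceeded 4.81 CPM, whereas 6 of the 8 WT libraries were at 4.69 CPM or above, so the genotypes overlapped.

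The log2 fold change of Il6ra in Tg was -0.63 averaged over training (SE 0.175, 95% interval -0.995 to -0.255, edgeR adjusted p = 0.0848), which did not pass the threshold of 0.05. It was -0.56 without and -0.69 with training (adjusted p of 0.278 and 0.483). Over 25 alternative settings the averaged value ran from -0.703 to -0.403 and its adjusted p from 0.0226 to 0.206. With single libraries left out the averaged value ran from -0.703 to -0.49. It passed in 2 of the 25, with DESeq2 (adjusted p = 0.0226) and in edgeR without WT trained replicate 2 (adjusted p = 0.0393). These settings called 640 and 374 of all tested genes, against 196 in edgeR with all libraries. The training difference, given as a description, was -0.24 in WT and -0.37 in Tg.

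Il6ra is also transcribed in leukocytes. The sum of 8 macrophage markers was 32.2 to 54.2 CPM in untrained and 19.7 to 60.7 CPM in trained WT libraries. It was 21.9 to 41.0 CPM in untrained and 19.2 to 26.5 CPM in trained Tg libraries, and none of the 8 was at 0 throughout. Within WT trained muscle, replicate 4 had the highest Il6ra and the highest macrophage sum, and replicate 2 the lowest of both. WT untrained replicate 2 was highest of its group in both, whereas replicate 1 had the lowest Il6ra and replicate 3 the lowest macrophage sum. In Tg untrained muscle replicate 4 was lowest in both. There, replicate 3 had the highest Il6ra while replicate 2 had the highest macrophage sum (41.0 against 35.5 CPM). In Tg trained muscle replicate 2 was lowest in both, but replicate 3 had the highest Il6ra at a macrophage sum of 19.5 CPM. WT untrained replicate 2 and WT trained replicate 4 had the highest Il6ra of the series and were also high in Alb. Tg untrained replicate 2, the other library high in Alb, was not the highest of its group in Il6ra. The part of macrophages in the Il6ra difference was not tested, nor was that of the tissue behind Alb. Il6ra rested on 128 to 420 counts per library, and 242 of its 8642 exon bases are shared with Gm42809 on the other strand, which averaged 0.101 CPM.

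Lifr and Osmr, which encode the partner subunits for leukaemia inhibitory factor and oncostatin M, lie near each other on chromosome 15 (Lifr at 7090614 to 7197489, plus strand; Osmr at 6813577 to 6874969, minus strand). Lifr measured 101, 126, 97.6 and 108 CPM in WT untrained and 98.0, 97.9, 109 and 103 CPM in WT trained libraries. It measured 88.3, 90.9, 99.4 and 82.7 CPM in Tg untrained and 109, 95.3, 89.9 and 91.6 CPM in Tg trained libraries. Lifr was lowest in Tg untrained muscle, yet its ranges overlapped between all neighbouring groups. Its log2 fold change in Tg was -0.26 (SE 0.086, adjusted p = 0.164) without training, -0.08 with training (adjusted p = 0.901) and -0.17 averaged (adjusted p = 0.164, edgeR). With single libraries left out the value without training ran from -0.304 to -0.177.

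Osmr measured 11.2, 11.02, 11.8 and 10.1 CPM in WT untrained against 9.57, 9.26, 9.59 and 8.65 CPM in Tg untrained libraries. These 2 groups did not overlap, which in the lower direction held for 4.18% of the tested genes. With training Osmr measured 8.65, 8.50, 9.38 and 10.7 CPM in WT and 8.74, 8.46, 8.13 and 9.24 CPM in Tg libraries, which overlapped. The log2 fold change in Tg was -0.25 (SE 0.076, edgeR adjusted p = 0.139) without training, -0.11 (adjusted p = 0.801) with training and -0.18 (SE 0.054, adjusted p = 0.11) averaged. The training difference of Osmr was -0.24 in WT and -0.10 in Tg.

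Il11ra1 (chromosome 4, 41699989 to 41769474, plus strand), the binding subunit for interleukin-11, varied little. It averaged 13.4 ± 1.04 CPM in untrained and 13.5 ± 0.929 CPM in trained WT muscle, and 14.95 ± 0.962 CPM in untrained and 13.9 ± 1.11 CPM in trained Tg muscle (SD, n = 4), with overlapping ranges. The averaged difference of Tg from WT was 0.10 on the log2 scale (95% interval -0.02 to 0.21, edgeR adjusted p = 0.379). The near copy Il11ra2 is listed in 3 rows that hold equal rounded counts in 16 of 16 libraries, at 0 to 11 each, against 494 to 899 for Il11ra1. Expected counts divide shared reads among such copies, so the Il11ra1 values carry that uncertainty.

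Jak1 (chromosome 4, 101152367 to 101265282, minus strand), a kinase bound to the shared subunit, and Stat3 (chromosome 11, 100885098 to 100939540, minus strand) both had their highest group mean in WT trained muscle, within ranges that overlapped those of the next group. Jak1 averaged 86.8 ± 10.1 CPM in untrained and 95.4 ± 9.72 CPM in trained WT muscle, and 80.4 ± 6.20 CPM in untrained and 81.6 ± 5.88 CPM in trained Tg muscle (SD, n = 4). Its log2 fold change in Tg was -0.22 with training (SE 0.091, edgeR adjusted p = 0.561) and -0.17 averaged (SE 0.064, adjusted p = 0.196). The averaged value ran from -0.189 to -0.123 with single libraries left out.

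Stat3 measured 31.9, 32.9, 33.2 and 33.9 CPM in WT untrained and 29.7, 29.4, 32.0 and 31.4 CPM in Tg untrained libraries. With training it measured 30.3, 26.8, 41.6 and 34.8 CPM in WT and 27.7, 28.9, 29.97 and 28.6 CPM in Tg libraries. The WT trained libraries spread widely and held both the highest and the lowest Stat3 level of the series. The log2 fold change of Stat3 in Tg was -0.16 averaged (SE 0.067, edgeR adjusted p = 0.237). Its training difference was 0.02 in WT and -0.09 in Tg, and the former turned negative in 6 of 25 alternative settings. Stat3 shares 72 of 9527 exon bases with Stat5a on the other strand.

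Socs2 (chromosome 10, 95385362 to 95417180, minus strand), an inhibitor known mainly from growth hormone signalling, measured 10.1, 4.66, 9.81 and 9.27 CPM in WT untrained libraries. It measured 10.8, 14.4, 8.43 and 10.6 CPM in WT trained, 12.1, 9.67, 7.79 and 12.1 CPM in Tg untrained and 11.4, 9.25, 12.9 and 10.1 CPM in Tg trained libraries. All groups overlapped, and WT untrained replicate 2 was the lowest of the series. The averaged log2 fold change in Tg was 0.14 (SE 0.152, edgeR adjusted p = 0.674). With single libraries left out it ran from 0.04 to 0.223.

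Socs3 (chromosome 11, 117966079 to 117970047, minus strand), the direct feedback inhibitor of the shared receptor subunit, was sparse at 53 to 123 counts per library. It averaged 1.58 ± 0.465 CPM in untrained and 1.69 ± 0.488 CPM in trained WT muscle, and 1.91 ± 0.238 CPM in untrained and 1.66 ± 0.511 CPM in trained Tg muscle (SD, n = 4). The averaged log2 fold change in Tg was 0.13 (95% interval -0.23 to 0.48, edgeR adjusted p = 0.739). The training difference was 0.11 in WT and -0.20 in Tg. All 4 groups overlapped in Socs3.

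**Figure D2:**
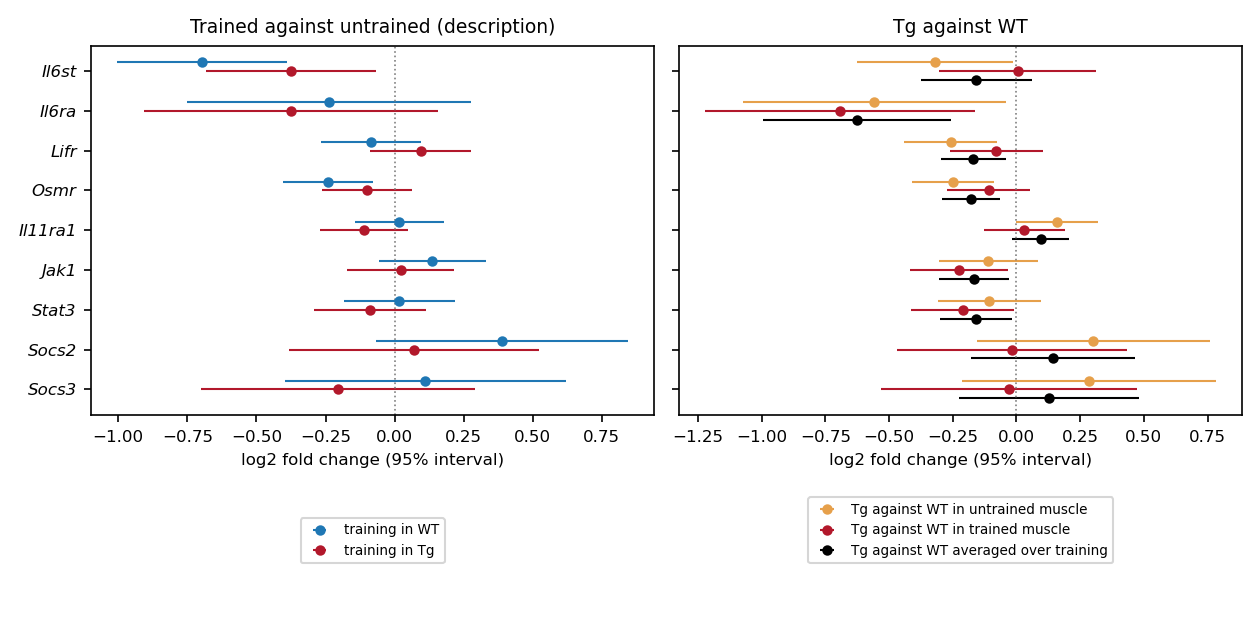
Fitted log2 fold changes with 95% intervals for the 9 genes: training in each genotype on the left, shown as a description, and Tg against WT on the right. The intervals on the left are no test, since the training difference of Il6st chose the set. Il6st, chosen for a low training value, has the lowest one in WT (-0.70). Il6ra has the lowest averaged genotype value (-0.63).

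Counted over the 9 genes, edgeR called none between Tg and WT averaged over training, against 1.12% of all tested genes (196 of 17490). An unadjusted p under 0.05 was reached there by 5 of the 9 genes and by 17.2% of all tested genes, while DESeq2 called 1 of the 9 and 640 of all genes. None was called without training (0.743% of all genes), with training (0.0114%) or for the difference of training responses (0.0515%). At an unadjusted p under 0.05 these comparisons held 5, 3 and 0 of the 9 genes, beside 16.2%, 8.0% and 6.0% of all tested genes. DESeq2 called 0 of the 9 in each, and 442, 54 and 35 of all genes. Averaged over training, 6 of the 9 had a negative difference and the median was -0.16, beside a median of 0.00 over all tested genes. The averaged training difference was negative for 6 of the 9 with a median of -0.05, again beside 0.00 over all genes. Apart from Il6st, training values ran from -0.31 for Il6ra to 0.23 for Socs2.

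Per kilobase of exon, Il6st, Jak1 and Lifr were the 3 most abundant transcripts of the set. Mean levels over the 16 libraries were 13.8 CPM per kb for Il6st, 11.9 for Jak1, 9.20 for Lifr, 3.30 for Stat3, 3.12 for Il11ra1, 1.07 for Socs2, 0.789 for Osmr, 0.592 for Socs3 and 0.499 for Il6ra. The mean over all libraries placed Il6st above Jak1 through the untrained groups. In trained muscle Jak1 had the higher mean, at 13.2 against 11.2 CPM per kb in WT and 11.3 against 11.2 in Tg. Some neighbours in this order were not separated: Il6st exceeded Jak1 in 8 of 16 libraries, Stat3 exceeded Il11ra1 in 9 and Socs3 exceeded Il6ra in 12. Jak1 exceeded Lifr, Lifr exceeded Stat3 and Il11ra1 exceeded Socs2 in 16 of 16. Lifr thus lay above Osmr. Il6ra had the lowest mean over all libraries, but in WT untrained muscle it lay above Socs3 (0.652 against 0.545 CPM per kb). Exon lengths came from GENCODE M21, which need not be the annotation used for counting.

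**Figure D3:**
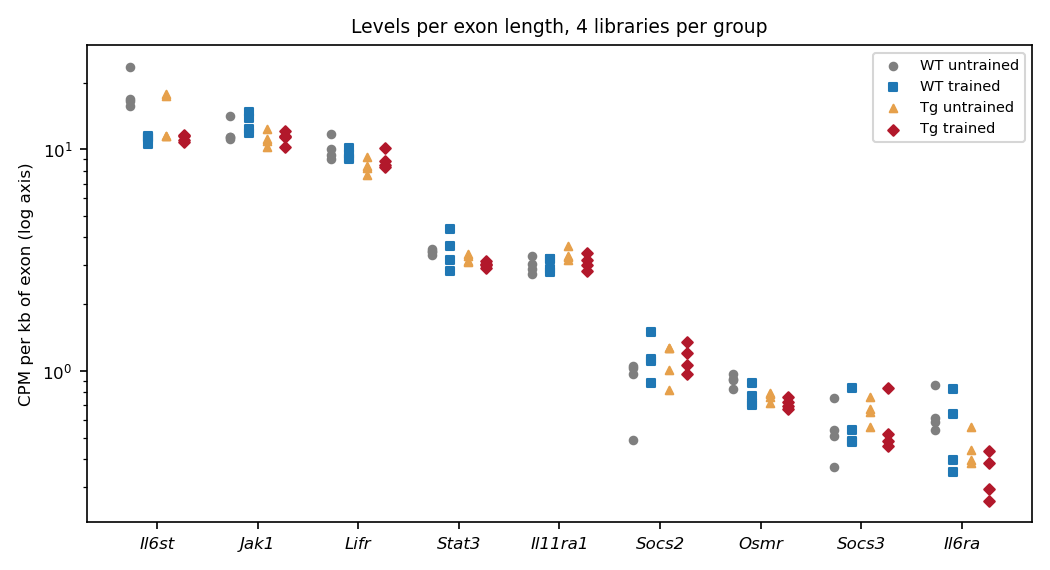
Level of each gene in CPM per kb of exon on a log axis, ordered by the mean of 16 libraries; each point is a library, with groups side by side. Il6st, Jak1 and Lifr lie above all others, and Il6ra and Socs3 at the bottom.

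Within groups, few members varied together. Correlations were computed for the 36 pairs over 16 libraries on log2 CPM after subtraction of the group mean, with permutation within groups and Benjamini-Hochberg adjustment over the pairs. Jak1 varied together with Lifr (Pearson r = 0.878, permutation p = 8e-05, adjusted p = 0.00288; Spearman rho = 0.791, p = 0.00099, adjusted p = 0.0257). Jak1 ran opposite to Socs2 (r = -0.881, permutation p = 0.00078, adjusted p = 0.014; rho = -0.818, p = 0.00143, adjusted p = 0.0257). Without the 2 libraries farthest from the median, r was 0.825 and -0.78. Both pairs missed the threshold without WT untrained replicate 2, where r was 0.806 (permutation adjusted p = 0.0666) and -0.809 (adjusted p = 0.0873). They also missed it without the libraries high in Alb (adjusted p of 0.126 and 0.227) and without those high in Myh7 (0.476 and 0.689). Fewer libraries also weaken the test, so a lost call alone does not show that a pair rested on those left out. The other 34 pairs were not called. Il6st was not called with any member; its r ran from -0.362 with Socs2 to 0.374 with Lifr.

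The genes whose pattern was most like that of Il6st were named by the highest Pearson r in log2 CPM over the 16 libraries, among 7502 named genes with a mean of at least 5 CPM. They were Evi5 (r = 0.865), which encodes a Rab GTPase-activating protein, Scd1 (0.845), a fatty acid desaturase, Pank3 (0.841), a pantothenate kinase of coenzyme A synthesis, Slc30a7 (0.83), a zinc transporter, and Ddi2 (0.83), an aspartic protease. The genes were selected for this value, so it carries no p. Group means were not removed, so r also holds the training difference of Il6st that chose the set. The averaged training difference was negative in each of these genes, from -1.869 in Scd1 to -0.175 in Ddi2. Spearman rho was 0.821, 0.812, 0.706, 0.753 and 0.582 in the order named. Without WT untrained replicate 2, r was 0.80, 0.82, 0.749, 0.736 and 0.711 in the same order. Evi5 averaged 14.9 ± 2.64 CPM in untrained and 12.3 ± 0.467 CPM in trained WT muscle, and 13.3 ± 0.885 CPM in untrained and 11.8 ± 0.585 CPM in trained Tg muscle (SD, n = 4).

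Scd1 spanned a wider range than Il6st, with the untrained mean above the trained one in both genotypes. It measured 77.2, 141, 105 and 51.1 CPM in WT untrained and 17.5, 28.3, 30.6 and 35.8 CPM in WT trained libraries. In Tg libraries it measured 144, 72.9, 79.3 and 22.5 CPM without training and 23.8, 15.2, 26.4 and 14.5 CPM with training. Tg untrained replicate 4 was at the trained level in both genes, whereas replicate 3 was at the trained level in Il6st and above all trained libraries in Scd1.

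**Figure D4:**
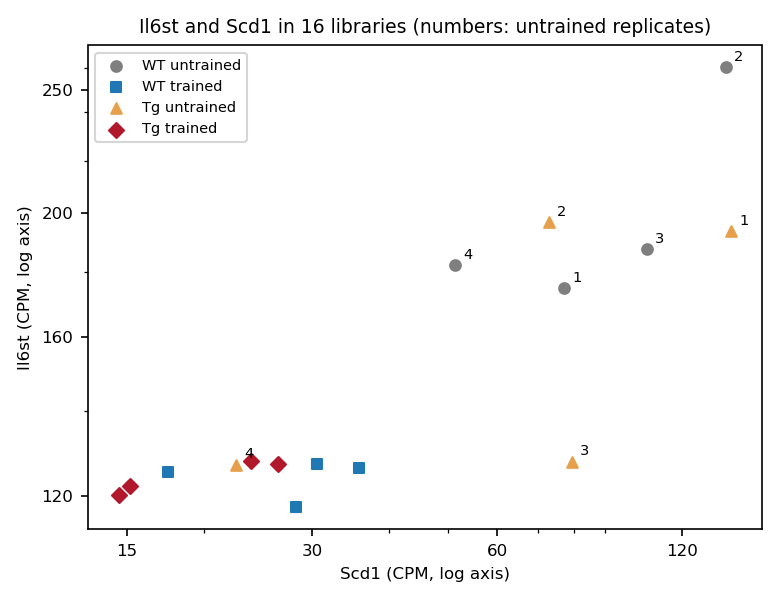
Il6st against Scd1 in CPM, both on log axes, with 1 point per library and untrained replicates numbered. The 8 trained libraries form a narrow band at 118 to 128 CPM of Il6st, joined by Tg untrained replicate 4 and, at a higher Scd1 level, replicate 3.

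The other genes of the pathway were a list of 51 symbols, of which 45 were tested. Ligand transcripts had few counts. Il6 had 0 to 4 counts per library, Il11 0 to 2, Osm 0 to 3, Il27 0 to 2 and Ebi3 0 to 8, and these 5 were not tested. Among those tested, Ctf1, which encodes cardiotrophin, had 74 to 157 counts, Cntf 18 to 77, Clcf1 11 to 41 and Lif 3 to 14. Clcf1 had the smallest p of the ligands for training (log2 fold change -0.49, SE 0.213, edgeR adjusted p = 0.305), from 0.01 in WT and -1.0015 in Tg, where the groups did not overlap (lower in 4.52% of the tested genes). The smallest p for genotype belonged to Ctf1 (0.23, SE 0.112, adjusted p = 0.31). The receptor gene Il27ra had 6 to 21 counts, with differences of 0.05 for training and 0.19 for genotype (adjusted p of 0.952 and 0.752).

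In no tested comparison was a pathway gene of the list called by edgeR. For training averaged over genotypes, 0 of 45 were called against 0.457% of all tested genes. There, 10 of the 45 reached an unadjusted p under 0.05, beside 14.4% of all tested genes. DESeq2 called 367 of all genes and, of the 45, Jak2 alone (log2 fold change 0.21, adjusted p = 0.0446). The smallest p in edgeR also belonged to Jak2, another kinase of these receptors (0.21, SE 0.058, adjusted p = 0.123; 0.0446 to 0.516 over 25 settings). Cish, an inhibitor of the SOCS family, followed with 1.16 (SE 0.326, adjusted p = 0.126). Cish averaged 1.98 ± 0.843 CPM in untrained and 5.72 ± 3.65 CPM in trained WT muscle, and 3.42 ± 0.874 CPM in untrained and 5.84 ± 3.78 CPM in trained Tg muscle (SD, n = 4). The WT groups of Cish did not overlap, which in the higher direction held for 2.36% of the tested genes.

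For Tg against WT averaged over training, 0 of 45 were called by edgeR and 4 by DESeq2, while 11 reached an unadjusted p under 0.05. Over all tested genes DESeq2 called 640, and 17.2% were under that p. Socs1, a feedback inhibitor of Janus kinases, had the smallest p in edgeR (log2 fold change 0.98, SE 0.233, adjusted p = 0.0528; 0.0295 to 0.149 over 24 settings). It passed with DESeq2 and, in edgeR, without WT trained replicate 2 (adjusted p = 0.0331) and without Tg untrained replicate 3 (adjusted p = 0.0462). Without these 2 libraries in turn, edgeR called 374 and 160 of all tested genes, against 196 with all libraries. Socs1 rested on 5 to 22 counts per library and averaged 0.128 ± 0.0305 CPM in untrained and 0.199 ± 0.0552 CPM in trained WT muscle, and 0.322 ± 0.112 CPM in untrained and 0.312 ± 0.109 CPM in trained Tg muscle (SD, n = 4). The untrained groups of Socs1 did not overlap, which in the higher direction held for 4.33% of the tested genes. By group, Socs1 had 5 to 7 and 7 to 12 counts in untrained and trained WT libraries. In Tg libraries it had 12 to 22 and 13 to 22. It thus passed the filter on low counts mainly through the Tg groups, where it was high, and its p carries that selection. Under the filter of at least 1 CPM in 4 libraries it was not tested.

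Il4ra, a receptor gene known as a STAT3 target, had -0.39 (SE 0.105, edgeR adjusted p = 0.0758; 0.0239 to 0.161 over 25 settings). It passed with DESeq2 and, in edgeR, with the replicate number as a block (adjusted p = 0.0469) and without WT untrained replicate 2 (0.0397) or WT trained replicate 2 (0.0308). In the same order, these settings called 640, 146, 351 and 374 of all tested genes, against 196 in edgeR with all libraries. Cntfr, the binding subunit for ciliary neurotrophic factor, had -0.95 (SE 0.259, adjusted p = 0.0806; 0.0384 to 0.30 over 25 settings). Its libraries averaged 9.76 ± 5.50 CPM in untrained and 7.86 ± 3.30 CPM in trained WT muscle, and 5.06 ± 2.04 CPM in untrained and 4.06 ± 0.377 CPM in trained Tg muscle (SD, n = 4). Among trained libraries the genotypes did not overlap in Cntfr, which in the lower direction held for 2.76% of the tested genes.

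Of the 16 genes known as STAT3 targets, 14 had a negative averaged difference in Tg (median -0.33) and 16 of 16 a negative one among trained libraries (median -0.42). In edgeR none of the 16 was called in either comparison, and 4 reached an unadjusted p under 0.05 in each, beside 17.2% and 8.0% of all tested genes. Among untrained libraries 12 of the 16 were negative (median -0.18), with 1 at an unadjusted p under 0.05. The calls of DESeq2 were 1, Il4ra, averaged over training and 0 among trained libraries. Over all tested genes, 50.18% and 50.87% were negative, with medians of 0.00. The macrophage markers named above had a median averaged difference of -0.67 in Tg, and their part in the target genes was not tested. Serpina3n, an acute-phase protease inhibitor, had -0.99 in Tg (SE 0.321, edgeR adjusted p = 0.13). For training, 11 of the 16 were negative (median -0.30, beside 0.00 over all genes). Junb, an immediate early gene singled out after its value was seen, had the lowest value, -1.05 (SE 0.412, edgeR adjusted p = 0.266). The smallest p belonged to Icam1, an adhesion molecule, at -0.41 (SE 0.121, edgeR adjusted p = 0.142), and to Bcl6, a transcriptional repressor, at 0.39 (SE 0.134, adjusted p = 0.208). Both passed without the 3 libraries high in Alb (adjusted p of 0.0261 and 0.0226), Icam1 also without WT trained replicate 4 (0.0364) and Bcl6 without WT untrained replicate 2 (0.0172). In the same order, these settings called 579, 387 and 218 of all tested genes for training, against 80 with all libraries. For the difference of training responses neither edgeR nor DESeq2 called any of the 45 genes (0 each), and 1 reached an unadjusted p under 0.05.

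The remaining subgroups held small differences. Tyk2, another kinase of these receptors, had -0.13 in Tg (edgeR adjusted p = 0.181) and Jak2 -0.13 (adjusted p = 0.275). Stat5b had the smallest p of the 3 other STAT genes in both comparisons, at -0.09 each (adjusted p of 0.645 for training and 0.59 for genotype). Among adaptors, Gab1, which links the receptors to the MAP kinase pathway, had 0.19 in Tg (SE 0.055, edgeR adjusted p = 0.102). It passed with DESeq2 (0.0487) and in edgeR without WT untrained replicate 2 (0.0496), where 640 and 351 of all tested genes were called. Shc1 had -0.14 and Grb2 0.10 with training (adjusted p of 0.245 and 0.312), and the phosphatase Ptpn11 -0.12 in Tg (adjusted p = 0.157). Without training Ptpn11 had -0.20 in Tg (SE 0.058, edgeR adjusted p = 0.112). Its groups there did not overlap, which in the lower direction held for 4.18% of the tested genes. It passed in 1 of 26 settings, DESeq2 (adjusted p = 0.0182), which called 442 of all genes in that comparison. Adam10 and Adam17, the proteases that shed the interleukin-6 receptor, lay between -0.07 and 0.05 in both comparisons (adjusted p from 0.565 to 0.981).

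**Figure D5:**
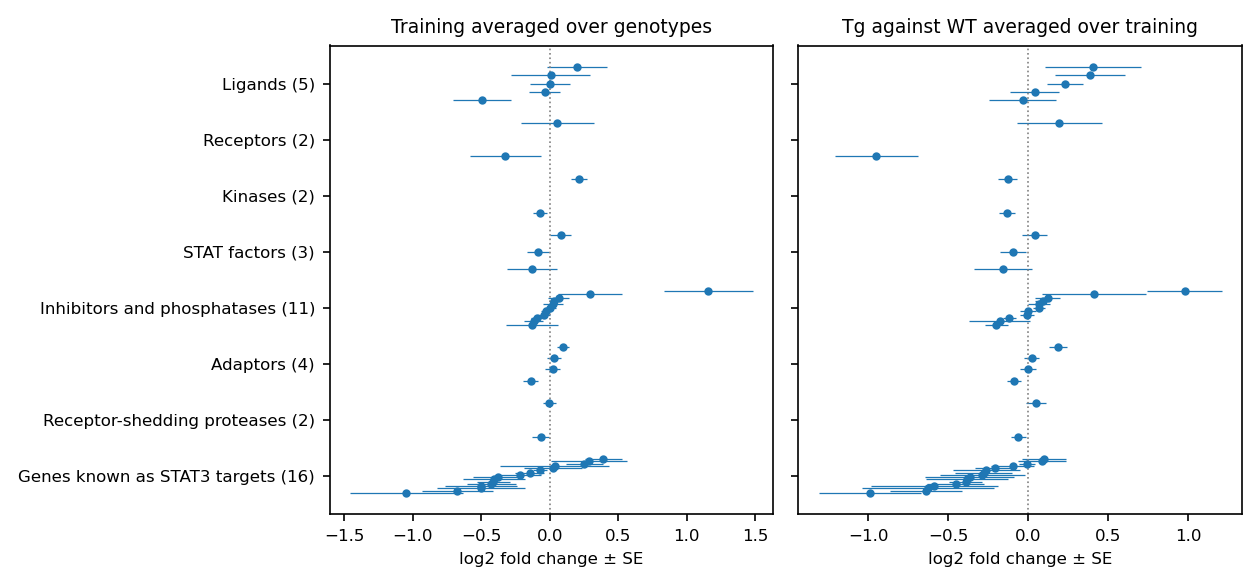
Fitted log2 fold changes with SE of the 45 tested other pathway genes by subgroup (number of genes in brackets), for training averaged over genotypes and for Tg against WT averaged over training. The points farthest from 0 are Cish (1.16) and Junb (-1.05) with training, and Socs1 (0.98), Serpina3n (-0.99) and Cntfr (-0.95) in Tg.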

How the data were processed

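The tools named in the submitters' processing notes are STAR 2.7.8a and RSEM 1.3.2, with the build mm10. The deposited table holds expected counts per gene, not normalized by the authors; 12.48% of its values were not whole, and strand and annotation release are not given in the sources used here. Expected counts were rounded. Genes were kept with filterByExpr by group, and 1 edgeR 4.0.16 quasi-likelihood model (R 4.3.3, TMM scaling, a mean per group, 16 libraries) was fitted to all 17490 genes, with Benjamini-Hochberg adjustment per contrast and calls under 0.05. SE and 95% intervals come from the quasi-likelihood F. CPM were computed from the rounded counts with TMM-scaled library sizes. Replicate pairs differed by more than sampling noise (chi-square per degree of freedom at least 6.62). That value was 114.8 to 130.4 in the pairs with WT untrained replicate 2 and at most 41.78 in the others. Positions are from GENCODE M21 by gene identifier.

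Alternatives were RLE factors, library totals without a factor, 2 filters, DESeq2 1.42.0, limma-voom (limma 3.58.1), the replicate number as a block, the 8 libraries of the groups compared alone, and left-out libraries with the tested genes held fixed. The pipeline was tested on simulated data. Correlations used 100000 permutations within groups, or 20000 where 1 library was left out. The text names the 9 members, Chchd4, ligands and receptors with a level (1 ligand is not reported here), up to 2 pathway genes of the smallest p per subgroup, and the 5 genes most like Il6st. Members, lists, alternatives and tests were chosen with earlier results of these data known.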

Additional observations from a re-analysis of the deposited data

Results flagged for a closer look

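In groups of 4 libraries, a library was singled out where its gap to the nearest other exceeded the share of the group's range set by Dixon's 95% criterion. Of 36 groups (9 genes in 4 groups) 4 were singled out; chance alone gives about 1 in 20. Of the 4, 3 were in WT untrained replicate 2, the library with the lowest summed muscle fibre markers: Il6st at 260.3 CPM against 175 to 187 in the other libraries of the group, Jak1 at 101.9 CPM against 80.8 to 82.3, and Socs2 at 4.66 CPM against 9.27 to 10.1. The other was Socs3 in Tg trained replicate 3, at 2.42 CPM against 1.32 to 1.503.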

How the results depend on the processing

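The count of members called between Tg and WT averaged over training, 0 in edgeR, was 1 with DESeq2 (Il6ra) and 0 to 1 with single libraries left out; in the other settings, and in the other 3 tested comparisons under every setting run, it stayed at 0. Other pathway genes called for training, 0 in edgeR, numbered 1 with DESeq2, 2 without the libraries high in Alb (Bcl6 and Icam1) and 0 to 1 with single libraries left out. For Tg against WT averaged they numbered 4 with DESeq2, 1 with the replicate number as a block and 0 to 2 with single libraries left out. Correlated pairs, 2 in the analysis above, numbered 15 with library totals and no scaling factor, 0 without the libraries high in Alb, 0 without those high in Myh7 and 0 to 5 with single libraries left out (0 when WT untrained replicate 2 was omitted and 5 when Tg trained replicate 3 was); the cause was not tested.

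Library totals in place of TMM shifted the median training difference of all genes by -0.111, with Il6st at -0.659 in place of -0.536. Under library totals the averaged training values of Lifr and Jak1 were -0.118 and -0.043 in place of small positive ones; that of Lifr was negative in 9 of 25 settings.

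All tested genes called for training averaged numbered 80, against 367 with DESeq2, 16 with the block, 579 without the libraries high in Alb, 41 without those high in Myh7 and 15 (without Tg untrained replicate 2) to 387 (without WT trained replicate 4) with single libraries left out. For Tg against WT averaged they numbered 196, against 640 with DESeq2, 85 with library totals and 29 (without Tg trained replicate 4) to 374 (without WT trained replicate 2). Without training they numbered 130, against 442 with DESeq2, 64 with library totals, 66 with the block, 32 without the libraries high in Myh7, 40 with only 8 libraries and 43 (without Tg untrained replicate 3) to 138. With training they numbered 2, against 54 with DESeq2, 5 with only 8 libraries, 1 with library totals, either filter or the block, and 1 to 16 (without WT trained replicate 2). For the difference of responses they numbered 9, against 35 with DESeq2, 15 without a filter and 4 without the libraries high in Myh7. Same-numbered libraries of different groups correlated at -0.153 to 0.176 in their deviations from the group means (24 pairs, 6 above 0.1). Differently numbered ones correlated at -0.2 to 0.161, with a smaller share above 0.1. These values do not settle whether the replicate number marks a pairing, which was not tested. The block changed no call of a member and moved the count of pathway genes as given. Socs1, Socs3 and the ligands are limited by their low counts.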
